A study of Mus musculus with 28 samples.

Results

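Macrophages sorted from the mouse pancreas after 1 day of recovery with lactate were compared with macrophages sorted at day 0, in a caerulein model of acute pancreatitis. The comparison rests on the library titles: 6 libraries titled D1 AP+Lac were set against 5 titled D0, 11 of 28 libraries in all. All mice were wild type (WT) on the C57BL/6J strain, and no gene was altered. The D0 libraries come from day 0 of the recovery model, and the D1 AP+Lac libraries (the lactate libraries below) from day 1. Beside them stand 6 libraries of the same day titled D1 AP+PBS (the PBS libraries), and 3 titled NC, whose meaning the labels do not give. The labels name neither the dose nor the route of the lactate, neither the sorting markers nor the age and sex of the mice. They also do not say whether each library came from a separate animal, so a p-value here speaks to the spread of these libraries and no further, and that spread may be technical.

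Caerulein, an analogue of cholecystokinin, overstimulates acinar cells and sets off acute pancreatitis. As background, monocytes then enter the tissue and become inflammatory macrophages that clear debris, and during recovery macrophages take on states tied to repair and to the upkeep of the tissue. Lactate, the end product of glycolysis, enters and leaves cells through monocarboxylate transporters, is converted by lactate dehydrogenase, and can also be attached to histones as lactylation.

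Values are FPKM, in which a gene's fragments are divided by its length in kilobases and by the fragments mapped in the library. The deposited table lists 25301 genes, and the 11 libraries hold 37518079 to 41023320 fragments each. Differences are log2 fold changes on the log2(FPKM + 1) scale, tested with limma over the 11960 genes that reached an FPKM of 1 in 3 or more libraries, and a gene is said to have risen or fallen where its Benjamini-Hochberg adjusted p was under 0.05. For genes with low FPKM this scale gives too small a change.

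Macrophage markers were present in each of the 11 libraries, each of the 14 reaching 1 FPKM in both groups, among them Csf1r, the receptor of the growth factor that keeps macrophages alive, at 299.6 to 334 FPKM at D0 and 268 to 604 with lactate. Of these markers 0 rose and 7 fell from D0. RNA of other cells was present as well, and it moved with the comparison. The summed FPKM of 15 B and plasma cell markers ran from 23.6 to 83.7 at D0 and from 234 to 1491 with lactate, and that of 19 T and NK cell markers from 23.7 to 80.2 and from 329 to 973, with no overlap in either list. Dendritic cell markers (16 genes) summed to 167 to 228 and 521 to 743, acinar markers (21 genes) to 371 to 701 and 1252 to 4061, and fibroblast and stellate cell markers (15 genes) to 17.9 to 35.6 and 58.2 to 642. Neutrophil markers (17 genes) went the other way, with 402 to 918 at D0 and 131 to 595 with lactate. Islet markers stayed under 1 FPKM in all 11 libraries, and Ppy, an islet hormone gene, and Epx, an eosinophil gene, were at 0 throughout. In bulk RNA such as this, more cells of a type and more RNA per cell cannot be told apart.

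Some libraries stood apart from their group. Lactate libraries 5 and 6 had the highest macrophage marker means (8.47 and 8.79 on the log2 scale, against 7.62 to 8.05 in lactate 1 to 4) and the lowest lymphocyte marker levels of their group. PBS 5 and 6 were likewise the lowest of their group in summed B and plasma cell markers. In both day 1 groups numbers 5 and 6 were lowest in summed fibroblast markers (58.2 and 74.7 with lactate, 83.2 and 74.8 with PBS). PBS 5 was, however, the highest of its group in T and NK cell markers (619). The cause of this split by number was not tested. D0 3 had the lowest lymphocyte markers of all D0 libraries. Lactate 4 carried the most acinar RNA, and lactate 2 the most neutrophil RNA. PBS 5, and in part PBS 6, held interferon-induced genes at the levels of the lactate libraries, unlike the other 4 of their group. Whether PBS 5 carries the right label was not tested, and each list compared directly between lactate and PBS below is also given without it. The changes from D0 to PBS are given with PBS 5 included.

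**Figure D1:**
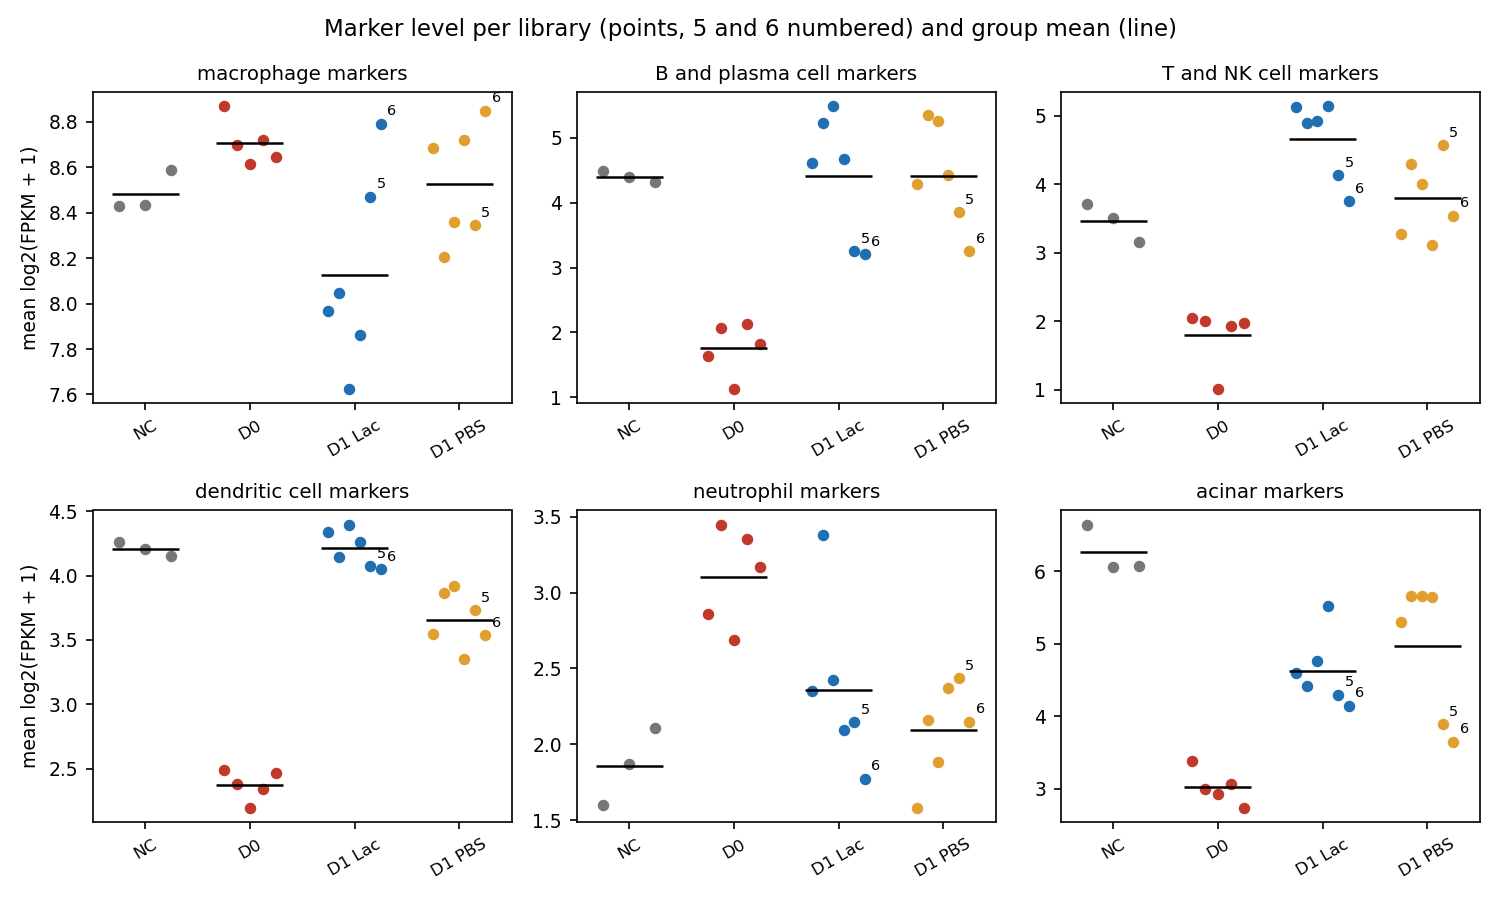
Mean log2(FPKM + 1) of 6 marker lists in each library (points) of the groups NC, D0, D1 AP+Lac and D1 AP+PBS, with the group mean (line); libraries 5 and 6 of both day 1 groups are numbered. Lymphocyte, dendritic cell and acinar markers are higher in every lactate library than in every D0 library, and lactate 5 and 6 stand above lactate 1 to 4 in macrophage markers.

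From D0 to day 1 with lactate, 5240 of 11960 genes (43.8%) rose and 2312 (19.3%) fell, 63.1% in all. A share this large is the background for every count of list members below. Many genes named below were picked for a large change or a small p in this same comparison. That their libraries do not overlap follows largely from this choice and is no added support. The share of all genes without overlap was not counted. The median log2 fold change over all genes was 0.20, so the balance of rises and falls depends on the scaling: quantile normalization moved that median to -0.06 and gave 2852 higher and 3930 lower, and median-ratio scaling moved it to 0.02 and gave 3925 and 3808. A covariate for lymphocyte markers left 1549 higher and 2658 lower. Because the marker levels do not overlap between the groups, that covariate and the step from D0 cannot be told apart. It is called the lymphocyte covariate below, and its values are given beside the lists it moved most. Not every named gene that lost its call with this covariate is marked below. Without lactate 5 and 6 the counts were 5600 and 2233.

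**Figure D2:**
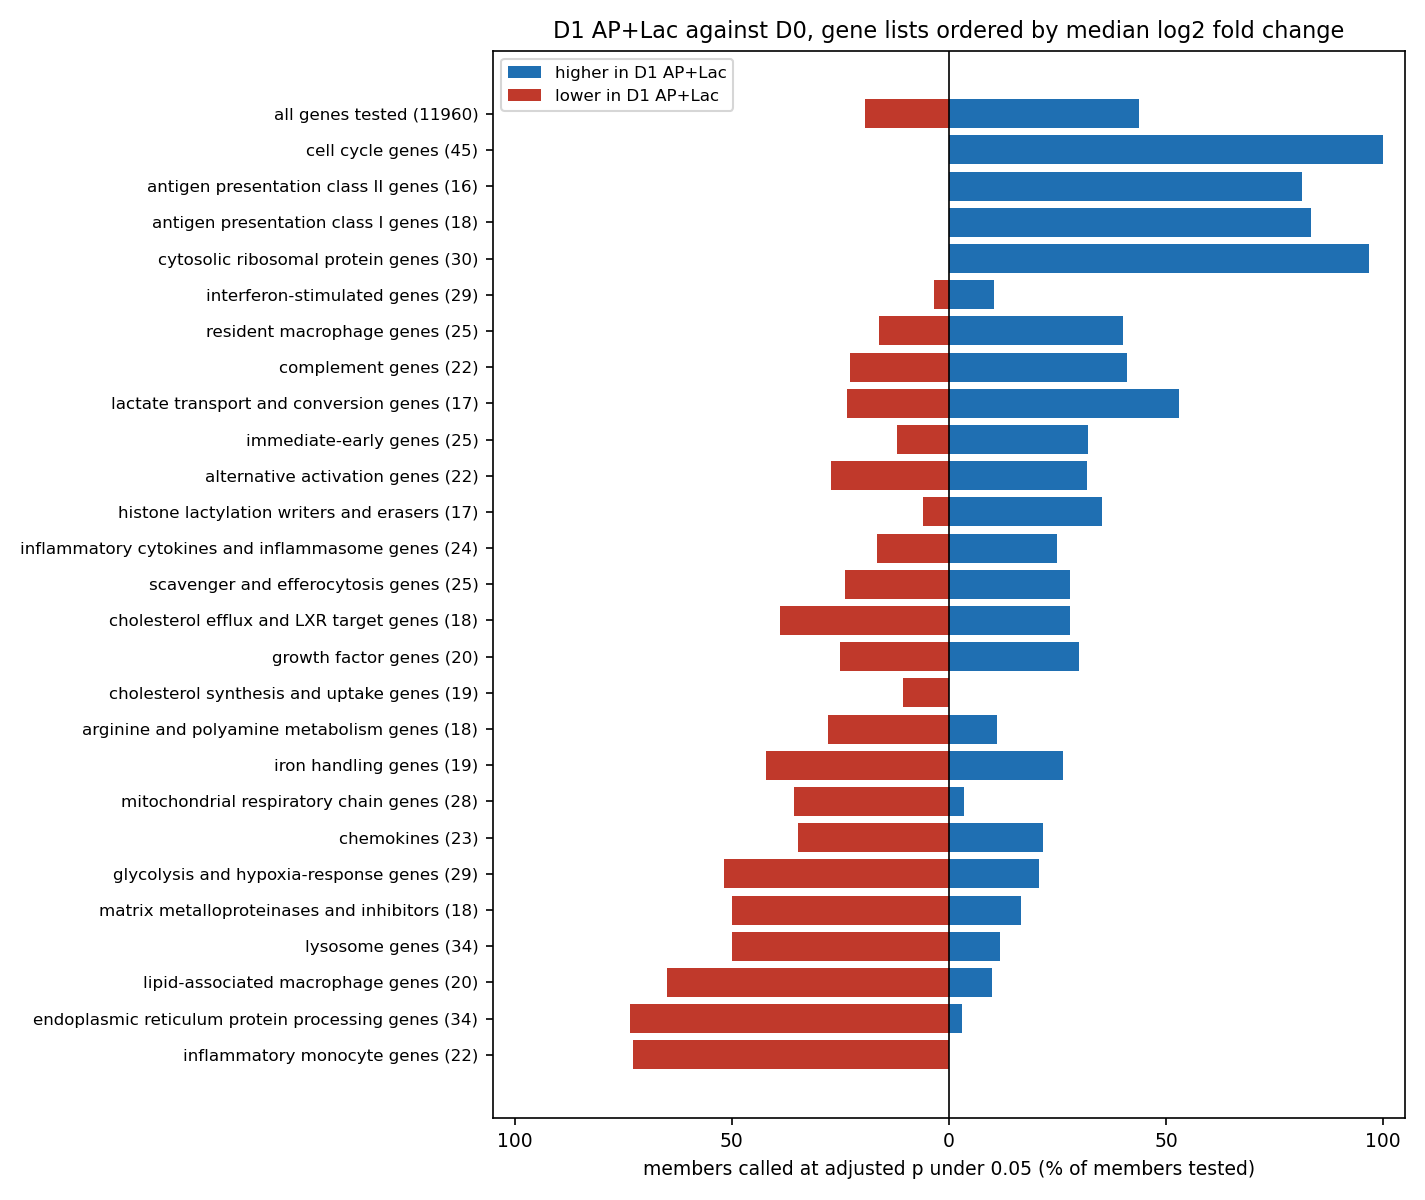
Share of the tested members of 26 gene lists (number tested in brackets) that were higher (right) or lower (left) in the lactate libraries than at D0 at adjusted p under 0.05, ordered by the median log2 fold change, with all 11960 genes at the top. Cell cycle and class II genes stand at the high end, endoplasmic reticulum and inflammatory monocyte genes at the low end.

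The deepest fall of the comparison was that of Arg1, which encodes arginase 1, the enzyme that splits arginine into ornithine and urea. Its FPKM at D0 were 974, 832, 625.3, 669 and 351, and with lactate they ran from 8.10 to 33.0 with a median of 21.2. Every lactate library lay below every D0 library (log2 fold change -5.11, SE 0.65, adjusted p = 3.66e-07). The D1 AP+PBS libraries held 14.0 to 44.3 FPKM, and the difference between lactate and PBS was -0.27 (SE 0.61, adjusted p = 0.84), which did not pass the test. With the lymphocyte covariate the change from D0 was -2.96 and lost its call (adjusted p = 0.1). The NC values were 1.37, 16.6 and 0.958.

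Genes of inflammatory monocytes fell as a group. Of 22 tested, 0 rose and 16 fell, with a median of -1.51, and 8 fell and 1 rose with the lymphocyte covariate. Vcan, which encodes the matrix proteoglycan versican, had 14.6, 60.1, 38.7, 44.4 and 41.5 FPKM at D0 and ran from 1.26 to 4.84 with a median of 3.01 with lactate (log2 fold change -3.31, SE 0.43, adjusted p = 5.17e-07). Fn1, which encodes fibronectin, ran from 422 to 673 at D0 and from 47.4 to 97.0 with lactate (log2 fold change -2.97), and Thbs1, which encodes thrombospondin 1, from 173 to 332 and 28.5 to 47.4 (log2 fold change -2.93). No lactate library reached the lowest D0 library in any of these genes. Itgam, which encodes the integrin CD11b, fell by 1.99, and Chil3, a chitinase-like protein of monocytes and alternatively activated macrophages, by 1.70, from a range of 1239.8 to 1909 to one of 348 to 624 FPKM. The monocyte surface gene Ly6c2 did not follow. It stood at 1408, 953, 1326, 1264 and 1307 at D0 and at 441 to 1289.8 with a median of 668 with lactate, with overlapping ranges and a change of -0.81 (SE 0.56, adjusted p = 0.205, but 0.0123 with only the 2 groups in the model). Under PBS it ran from 56.3 to 1352 with a median of 102, where PBS 5 (1352) and PBS 6 (309.7) were the highest. Ccr2, the receptor for the chemokine CCL2, fell by 0.76 (adjusted p = 0.00146), and turned to 0.49 with the lymphocyte covariate, where Chil3 also lost its call (-0.42, adjusted p = 0.654).

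CCL2 and CCL7 are the chemokines that call CCR2-bearing monocytes out of the blood. Ccl2 had 1439, 1402, 1208, 1597 and 1603 FPKM at D0 and 110.5 to 217 with a median of 174 with lactate (log2 fold change -3.17, SE 0.29, adjusted p = 3.70e-09). Ccl7 went from 865, 729.9, 759.7, 766 and 822 to a range of 54.8 to 131 with a median of 108 (log2 fold change -3.06, SE 0.34, adjusted p = 6.15e-08). Both genes were lower in all 6 lactate libraries than in any D0 library, and also below the NC values of 368, 334 and 231 for Ccl2. The chemokine list, Ccl2 and Ccl7 included, split: over 23 tested, 5 rose and 8 fell, with a median of -0.28. With the lymphocyte covariate 4 rose and 3 fell (median 0.13). Ccl7 at -1.18 and Cxcl2 at -1.52 then lost their calls (adjusted p = 0.16 and 0.22). Ppbp, a platelet chemokine gene, fell by 2.25 from low levels (2.26 to 15.4 FPKM at D0), while Ccl5, made by T and NK cells and by macrophages, rose from 77.5, 44.5, 17.5, 61.7 and 63.9 to a range of 256 to 448 FPKM (log2 fold change 2.97). Cxcl2, which draws neutrophils, had 285, 496, 219, 628 and 292 at D0 and 66.2 to 192 with a median of 112 with lactate (log2 fold change -1.63, SE 0.41, adjusted p = 0.0015).

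Tissue-remodelling and granule genes were among the deepest falls. Mmp8, which encodes neutrophil collagenase, stood at 33.8, 76.0, 52.6, 52.4 and 36.8 at D0 and ran from 0.709 to 3.61 with a median of 2.09 with lactate (log2 fold change -4.07, SE 0.27, adjusted p = 1.34e-11). Lcn2, which encodes the iron-siderophore binder lipocalin 2, went from 67.7, 115, 97.3, 101 and 74.9 to a range of 1.86 to 17 with a median of 4.69 (log2 fold change -3.80, SE 0.41, adjusted p = 3.35e-08). In both genes all lactate libraries were below all D0 libraries. Both are also on the neutrophil marker list, of which 3 of 13 tested members rose and 8 fell, and the part of neutrophil RNA in their fall was not tested. Among 18 matrix metalloproteinase and inhibitor genes, 3 rose and 9 fell, with a median of -0.39 (5 and 5 with the lymphocyte covariate). Adam8, a membrane metalloproteinase, fell from a range of 80.5 to 149 to one of 15.1 to 26.9 FPKM (log2 fold change -2.50), Mmp19 by 2.46 and Plau, the urokinase gene, by 1.35. Plau lost its call with the lymphocyte covariate (-0.78, adjusted p = 0.171). Outside the lists, Slc39a14, which encodes the zinc and iron importer ZIP14, went from 21.4, 31.6, 25.1, 31.2 and 26.3 to a range of 1.34 to 3.19 with a median of 2.18 (log2 fold change -3.15, SE 0.14, adjusted p = 7.50e-15), the smallest adjusted p among the genes named here. Its ranges were far apart. Pdpn, which encodes podoplanin, fell by 3.14, and Fabp7, a fatty acid binding protein, by 3.07.

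Osteopontin, the product of Spp1, marks lipid-associated and scar-associated macrophages. Spp1 held 2827, 1888, 2715, 1394 and 1252 FPKM at D0 and ran from 56.5 to 468 with a median of 126 with lactate (log2 fold change -3.59, SE 0.43, adjusted p = 1.85e-07). The highest lactate values were those of libraries 5 (439.9) and 6 (468), still below the lowest D0 library. Of 20 lipid-associated macrophage genes tested, 2 rose and 13 fell, with a median of -0.70. The lipid droplet coat gene Plin2 fell from 603, 524, 452, 399.5 and 462 to a range of 73.2 to 226 FPKM (log2 fold change -2.10), the protease inhibitor gene Cstb by 1.63 and the galectin gene Lgals1 by 1.17. Trem2, a lipid-sensing receptor, fell by 0.72 (adjusted p = 0.0315), a call that was lost without D0 1 (adjusted p = 0.108) and without lactate 2, 3 or 4. With the lymphocyte covariate this list turned to 3 higher and 0 lower (median 0.31), Plin2 to 0.31 and Trem2 to 1.16. Spp1 then stood at -0.23 (adjusted p = 0.794), and Cstb and Lgals1 lost their calls as well (adjusted p = 0.216 and 0.314).

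Endoplasmic reticulum chaperones and foldases fell together. Of 34 genes of protein processing in that compartment, 1 rose and 25 fell, with a median of -0.79, and the count was 0 and 25 with the lymphocyte covariate and 1 and 30 with median-ratio scaling. Hspa5, which encodes the chaperone BiP, had 1005, 1165, 1716, 1055 and 1174 FPKM at D0 and 273 to 479 with a median of 468 with lactate (log2 fold change -1.56, SE 0.15, adjusted p = 7.49e-09). Calr, the calcium-binding chaperone calreticulin, went from 1188, 1305, 1636, 1239.7 and 1276 to a range of 334 to 550.1 with a median of 436 (log2 fold change -1.63, SE 0.12, adjusted p = 1.14e-10). Pdia6, a disulfide isomerase, went from 377, 440.1, 555, 444 and 453 to a range of 87.4 to 170.0 with a median of 136 (log2 fold change -1.81, SE 0.14, adjusted p = 1.94e-10). Lactate and D0 libraries did not overlap in any of the 3 genes. P4hb, another disulfide isomerase, fell by 1.28 and the co-chaperone gene Dnajb11 by 1.34. Under PBS the same step was -1.99 for Hspa5 and -1.93 for Calr, and 2 genes of the list rose and 26 fell. The member that rose was Ero1b, an oxidoreductase (0.60, adjusted p = 2.18e-04), singled out after its values were seen.

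Some promoters of these genes carry a known element, which is printed because the members fell together. The endoplasmic reticulum stress element, CCAAT followed by 9 bases of any kind and CCACG, was searched on both strands of RefSeq promoter windows (build GRCm38.p6, 250 bases before to 50 after the start). Of 29 list members with a window, 10 held it in any of their promoters (34.5%), against 0.14% of 27025 genes. By promoter, 39 of 32851 held the element (0.12%). The CCAAT part is also a motif of its own and overlaps it. Of the 10 members with the element, 1 rose and 7 fell (median -0.96), and of the 19 without it, 0 rose and 14 fell (median -0.60). A match describes letters only, and their part in the fall was not tested. The windows below are given 5′ to 3′ along the gene, with both ends of the element in capitals. That of Hspa5 is chr2:34772015-34772053 on the plus strand, that of Calr chr8:84847065-84847103 on the minus strand, where the element is read in reverse, and that of Pdia6 chr12:17266481-17266519 on the plus strand.
Hspa5: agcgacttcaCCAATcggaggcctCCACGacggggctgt
Calr: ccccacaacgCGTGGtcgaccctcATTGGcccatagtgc
Pdia6: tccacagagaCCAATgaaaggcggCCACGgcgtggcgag

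**Figure D3:**
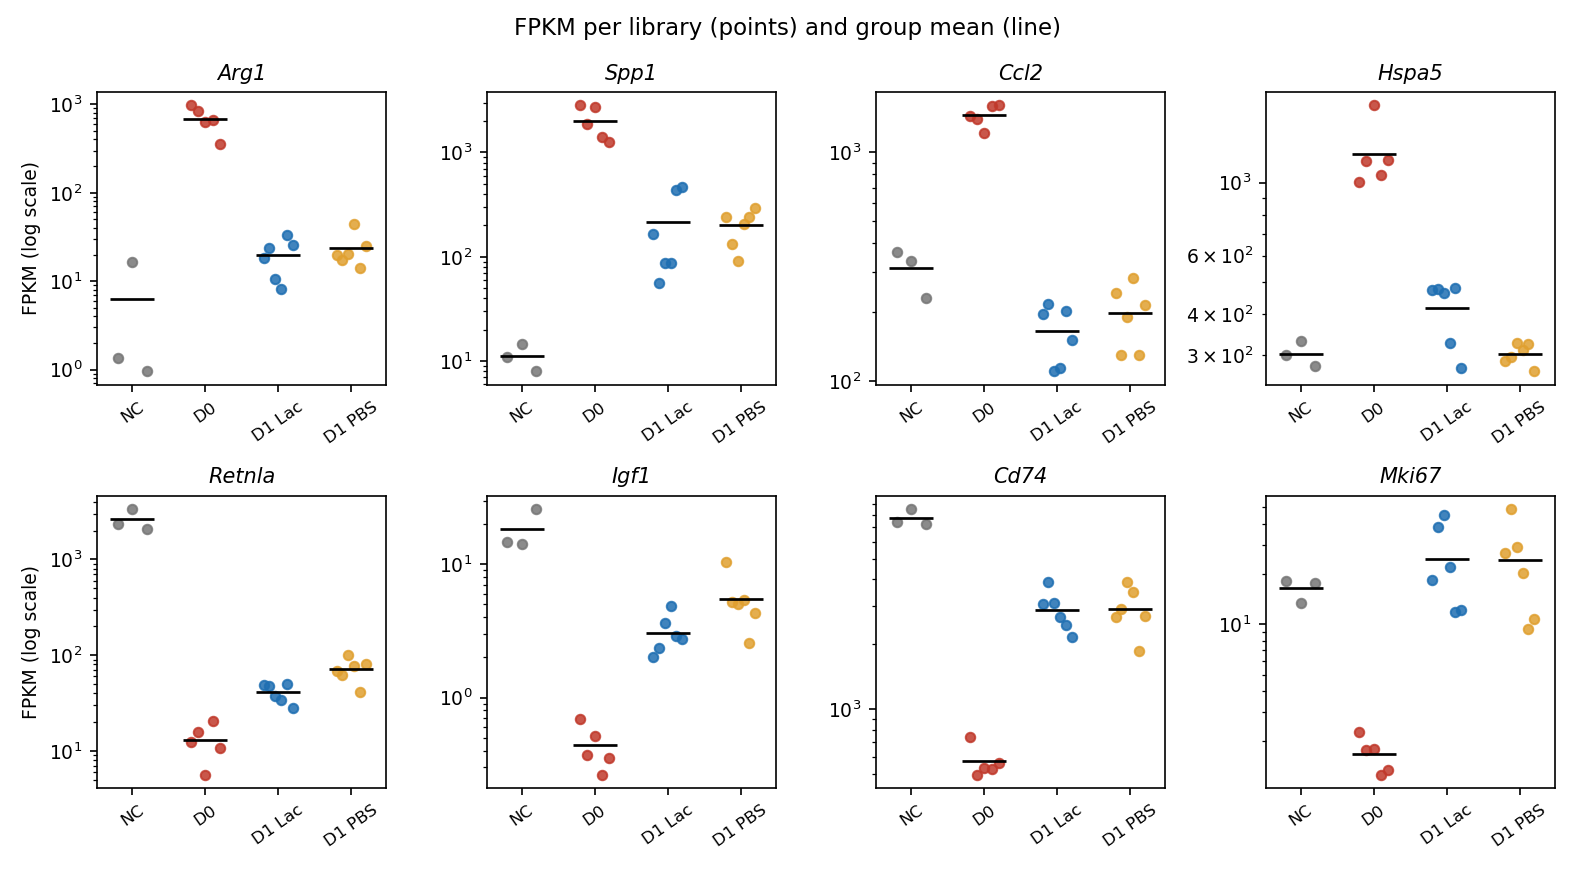
FPKM (log axis) of 8 genes in each library (points) of the groups NC, D0, D1 AP+Lac and D1 AP+PBS, with the group mean (line). Arg1, Spp1, Ccl2 and Hspa5 are lower, and Retnla, Igf1, Cd74 and Mki67 higher, in every lactate library than in every D0 library; the PBS libraries overlap the lactate libraries in each panel.

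Genes of alternative activation split. Of 22 tested, 7 rose and 6 fell, with a median of 0.20, as over all genes (-0.02 with median-ratio scaling). Retnla, which encodes the secreted protein RELM-alpha, had 12.3, 15.7, 5.62, 20.6 and 10.7 FPKM at D0 and 28.1 to 49.7 with a median of 42.4 with lactate (log2 fold change 1.66, SE 0.32, adjusted p = 9.75e-05). All lactate libraries lay above all D0 libraries, far under the NC values of 2375, 3386 and 2108. With the lymphocyte covariate the change was 1.63 (adjusted p = 0.0855). Hpgd, which breaks down prostaglandins, rose from 0.603, 0.924, 0.585, 0.744 and 0.794 to a range of 9.57 to 14.1 (log2 fold change 2.90), and Irf4, a transcription factor of alternatively activated macrophages that B cells and dendritic cells also use, by 2.77. On the other side, Il4ra, the interleukin 4 receptor, fell from a range of 157 to 275 to one of 42.1 to 75.2 FPKM (log2 fold change -1.76), and Msr1, a scavenger receptor, from a range of 80.0 to 97.8 to one of 12.6 to 20.2 (log2 fold change -2.30). Mrc1, the mannose receptor CD206, stood at 47.4, 181, 124, 101 and 104.8 at D0 and ran from 82.5 to 160.5 with a median of 127 with lactate, with overlapping ranges (0.22, adjusted p = 0.483). With the lymphocyte covariate it was called higher (1.41, adjusted p = 0.0458). Il10, which encodes an anti-inflammatory cytokine, gave 0.17 (adjusted p = 0.663).

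Resident macrophage genes moved in both directions too. Over 25 tested, 10 rose and 4 fell, with a median of 0.37. These shares are near those over all genes (43.8% and 19.3%), so the count shows nothing particular to the list. It became 11 and 0 (median 1.06) with the lymphocyte covariate and 8 and 6 without lactate 5 and 6. Fcna, which encodes ficolin A, had 1.66, 4.90, 2.94, 3.71 and 2.02 FPKM at D0 and 16.3 to 28.6 with a median of 16.6 with lactate (log2 fold change 2.31, SE 0.25, adjusted p = 3.50e-08). Pltp, the phospholipid transfer protein, rose from 74.9, 56.5, 54.4, 55.0 and 58.0 to a range of 221 to 459 (log2 fold change 2.29). Neither gene had overlapping groups. F13a1, a coagulation factor subunit of tissue macrophages, fell by 1.47, a call lost with the lymphocyte covariate (-0.42, adjusted p = 0.477). Cd163, the haemoglobin scavenger receptor, had 8.82, 40.0, 25.1, 16.9 and 9.56 at D0 and 19.3 to 33.6 with a median of 23.9 with lactate, and overlapped (0.51, adjusted p = 0.233). Adgre1, which encodes F4/80, fell by 0.49 (adjusted p = 0.0461), a call that was lost on leaving out any 1 library other than D0 3 and lactate 6, and turned to 0.74 with the lymphocyte covariate. Csf1r gave 0.22 (adjusted p = 0.244), but was called higher with quantile normalization (0.45, adjusted p = 0.0302) and the lymphocyte covariate (1.25, adjusted p = 0.00102).

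Igf1, a growth factor that macrophages release during tissue repair, had 0.695, 0.372, 0.519, 0.263 and 0.355 FPKM at D0 and 2.01 to 4.82 with a median of 2.83 with lactate (log2 fold change 1.47, SE 0.25, adjusted p = 2.31e-05). The groups did not overlap, and all values were low. Among 20 growth factor genes 6 rose and 5 fell, with a median of -0.04, and quantile normalization gave 2 and 10. Tgfbi, a matrix protein induced by TGF-beta, fell from 1785, 1818, 1631, 2043 and 1604 to a range of 261 to 516 (log2 fold change -2.36), Osm, which encodes oncostatin M, fell by 1.83, and Vegfb rose by 1.11. Tgfb1 gave -0.19 (adjusted p = 0.0753), and Vegfa -0.30 (adjusted p = 0.287). Tgfb1 was called lower with median-ratio scaling (-0.43, adjusted p = 9.43e-04), with library weights and without D0 3 or lactate 6. Vegfa was called lower with quantile normalization (-0.76, adjusted p = 0.0047) and an acinar covariate (-0.70, adjusted p = 0.0411). Of 24 genes of inflammatory cytokines and the inflammasome, 6 rose and 4 fell, with a median of 0.12 (-0.06 with median-ratio scaling). Il1b, the interleukin 1 beta gene, had 124, 190.1, 115, 293 and 173 at D0 and 76.6 to 249 with a median of 164 with lactate, with wide overlap (-0.19, adjusted p = 0.645). Tnf had 26.7, 24.5, 23.1, 34.96 and 24.5 at D0 and 7.86 to 23.5 with a median of 12.3 with lactate, and fell (log2 fold change -0.89, SE 0.28, adjusted p = 0.00848), although lactate 1 (23.5) overlapped the D0 range. The call was lost without lactate 5 and 6 (-0.62, adjusted p = 0.0693) and with the lymphocyte covariate (-1.52, adjusted p = 0.0617). Nlrp3, the inflammasome sensor, fell by 0.74, while Il12b (1.21) and the inhibitor gene Tnfaip3 (1.07, -0.21 with the lymphocyte covariate) rose. With that covariate Nlrp3 (-0.66, adjusted p = 0.231), Il12b (0.15, adjusted p = 0.855) and Vegfb (0.96, adjusted p = 0.0649) lost their calls.

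Receptors that take up debris and complement followed no single direction. Of 25 scavenger and efferocytosis genes 7 rose and 6 fell with a median of 0.09 (4 and 7 with median-ratio scaling, 10 and 3 with the lymphocyte covariate), the fallen ones including the endocytic receptor gene Lrp1 (-1.60) and the integrin genes Itgav (-0.99) and Itgb5 (-1.46). Lrp1 (-0.99, adjusted p = 0.124) and Itgb5 (-0.21, adjusted p = 0.733) lost their calls with that covariate. Of 22 complement genes 9 rose and 5 fell, with a median of 0.33, shares near those over all genes (43.8% and 19.3%). The receptor for the fragment C5a, C5ar1, went from 250.2, 290.5, 235, 315 and 292 to a range of 37.2 to 84.1 with a median of 50.2 FPKM (log2 fold change -2.33, SE 0.23, adjusted p = 1.28e-08), with no overlap, and the second receptor gene C5ar2 fell by 1.66. Both calls were lost with the lymphocyte covariate (-0.74 and -0.50, adjusted p = 0.135 and 0.206). Cd55, which protects cells from complement and is also expressed by lymphocytes, rose by 1.87 and turned to -0.56 with the lymphocyte covariate. Among 25 immediate-early genes, 8 rose and 3 fell with a median of 0.23 (1 and 1 with the lymphocyte covariate), with rises of 2.31 for Egr3, 1.84 for Dusp2, 1.73 for Nr4a3 and 0.71 for Jund. Dusp2 turned to -0.03 with the lymphocyte covariate.

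Genes of glycolysis, the pathway that makes lactate, fell more often than they rose. Of 29 glycolysis and hypoxia-response genes 6 rose and 15 fell, with a median of -0.34, and 1 rose and 16 fell with the lymphocyte covariate. Pkm, the pyruvate kinase gene, had 301, 344, 302, 355 and 319 FPKM at D0 and 69.6 to 159 with a median of 96.4 with lactate (log2 fold change -1.65, SE 0.18, adjusted p = 3.47e-08). Eno1, which encodes enolase, went from 567.5, 641, 570.5, 662 and 627 to a range of 174 to 347 (log2 fold change -1.29), and Hif1a, the oxygen-sensing transcription factor, from a range of 85.2 to 108 to one of 29.6 to 56.4 (log2 fold change -1.20). No overlap was seen in these genes. Pfkfb3, a regulatory enzyme that drives glycolysis, went against them, from 18.5, 13.7, 13.9, 11.97 and 16.3 to a range of 24.8 to 47.4 (log2 fold change 1.35, SE 0.16, adjusted p = 2.18e-07).

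Of the genes that carry and convert lactate, 17 were tested, 9 rose and 4 fell, with a median of 0.24, and quantile normalization gave 5 and 5, the lymphocyte covariate 4 and 6. Slc16a3 encodes MCT4, known as the exporter of glycolytic cells. It had 33.2, 46.8, 30.01, 52.8 and 41.6 FPKM at D0 and 6.42 to 17.1 with a median of 10.9 with lactate (log2 fold change -1.78, SE 0.27, adjusted p = 3.91e-06), without overlap. Slc16a1, which encodes the transporter MCT1, had 2.13, 3.14, 2.62, 3.23 and 2.51 at D0 and 2.07 to 11.01 with a median of 6.22 with lactate. It rose by 0.80 (adjusted p = 0.0135), but lactate 5 lay within and lactate 6 below the D0 range, the call was lost under quantile normalization (adjusted p = 0.157), and the value turned to -1.47 with the lymphocyte covariate. Ldha, the dehydrogenase subunit that favours lactate formation, had 118, 117, 99.0, 124 and 112 at D0 and 60.4 to 125 with a median of 74.9 with lactate, and fell by 0.47 (adjusted p = 0.0129) with overlapping ranges. Without lactate 5 and 6 that adjusted p was 0.119. Ldhb, the subunit known to favour lactate use, had 6.18, 2.93, 3.82, 3.02 and 2.69 at D0 and 4.17 to 9.33 with a median of 5.78 with lactate and rose by 0.60 (adjusted p = 0.00791), a call lost under both scalings (adjusted p = 0.31 and 0.0635). Gpr132, a receptor reported to sense lactate, rose from 13.4, 12.3, 9.28, 17.1 and 13.4 to a range of 36.3 to 62.8 (log2 fold change 1.76). Ndrg3, a protein that binds lactate, rose by 0.76, the pyruvate dehydrogenase kinase gene Pdk2 by 1.23, and the transporter gene Slc16a6 fell by 1.19. The lactate receptor gene Hcar1 was at or near 0 in all 11 libraries, with a highest value of 0.0163 FPKM, and was not tested. None of the transport genes Slc16a1, Slc16a3 and Slc16a6 passed the test between lactate and PBS (adjusted p = 0.428, 0.381 and 0.216).

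Of the enzymes that write or erase histone lactylation, 17 were tested. Of these, 6 rose and 1 fell with a median of 0.15, median-ratio scaling gave 4 and 6, and the lymphocyte covariate 2 and 6. Ep300, which encodes the acetyltransferase p300, had 16.5, 20.7, 21.5, 16.7 and 21.0 FPKM at D0 and 15.9 to 26.1 with a median of 22.2 with lactate (0.17, adjusted p = 0.362). The deacylase genes Sirt1 (0.75) and Sirt3 (0.81) and the acetyl-CoA synthetase gene Acss2 (1.15) rose, and the acetyltransferase gene Kat2a fell by 0.68.

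Lysosome genes fell more often than they rose, and ribosomal protein genes rose. Lysosome genes gave 4 higher and 17 lower of 34 (median -0.40), led by Ctsl, the cathepsin L gene, from a range of 310.3 to 455 to one of 51.6 to 143 FPKM (log2 fold change -2.21), with Cd68 at -1.24 (0.17 with the lymphocyte covariate) and Atp6v1h at -0.69. The lymphocyte covariate turned the list to 18 higher and 1 lower (median 0.81), with Ctsl at -0.48 (adjusted p = 0.305). Ribosomal protein genes gave 29 higher and 0 lower of 30 (median 0.64), with Rps4x at 0.92, Rps24 at 0.90, Rpl10a at 0.92 and Rpl7 at 0.72, and 0 and 5 (median -0.28) with that covariate. Respiratory chain genes gave 1 and 10 of 28 (median -0.18), 0 and 23 with median-ratio scaling, and 2 and 4 (median -0.12) with quantile normalization. Members named by the rule were Ndufb8 (-0.58), Sdhc (-0.48), Cox6a1 (-0.51) and Uqcrc1 (-0.39). Cholesterol synthesis and uptake genes gave 0 and 2 of 19 (median -0.08), 0 and 17 with the lymphocyte covariate and 4 and 1 without lactate 5 and 6. Of the falls, that of the sterol oxidase gene Msmo1 (-0.56) lost its call without lactate 5 and 6 (-0.37, adjusted p = 0.0582). Lss (0.55) and Acat2 (0.67) did not pass the test, but they did without lactate 5 and 6 (0.86 and 1.09, adjusted p = 0.00288 and 0.00369), without either of these libraries, with library weights and with the replicate number as a block (adjusted p = 0.00931 and 0.00787). With the lymphocyte covariate they turned to -1.26 and -1.78. Among 18 cholesterol efflux genes 5 rose and 7 fell (median -0.03), with Scd1, a fatty acid desaturase, up by 2.95 (-1.08 with the lymphocyte covariate), Mylip up by 0.96 and Apoc2 down by 1.59.

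Arginine and iron handling were led by a few genes. In the arginine and polyamine list, 2 of 18 rose and 5 fell (median -0.09), Arg1 the deepest, with Smox at -0.64 and Sms, which makes spermine, at 0.77. Nos2, the inducible nitric oxide synthase that competes for arginine, had 0.0517, 0.0520, 0.0799, 0.0687 and 0.0170 FPKM at D0 and 0.905 to 11.8 with a median of 2.26 with lactate (log2 fold change 1.94, SE 0.56, adjusted p = 0.00418), so that all lactate libraries were above all D0 libraries, which stood near 0. The call was lost with the lymphocyte covariate (1.59, adjusted p = 0.349). With the PBS treatment Nos2 ran from 0.00616 to 2.56 with a median of 0.0419, and only PBS 5 (2.56) reached the lactate range. Iron handling genes gave 5 higher and 8 lower of 19 (median -0.09). The haem-degrading enzyme gene Hmox1 fell from 248, 348, 332, 264 and 274 to a range of 67.8 to 109 (log2 fold change -1.71), Slc11a1, the phagosomal metal transporter gene, by 1.49 and Hp, the haptoglobin gene, by 2.36. Hmox1 stood at -0.46 with the lymphocyte covariate (adjusted p = 0.41).

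Lymphocyte genes were among the highest rises, beside genes known as interferon targets, replication genes and an acinar gene. Gzmb, which encodes the cytotoxic protease granzyme B, had 1.57, 0.771, 1.36, 1.17 and 1.71 FPKM at D0 and 35.3 to 157 with a median of 65.8 with lactate (log2 fold change 4.85, SE 0.38, adjusted p = 2.54e-10). Gzma, the granzyme A gene, went from 3.83, 3.72, 2.70, 4.63 and 5.12 to a range of 63.6 to 187 with a median of 122 (log2 fold change 4.56, SE 0.38, adjusted p = 6.48e-10). Nkg7, a granule gene of NK and T cells, rose by 3.73. Among B and plasma cell genes, Ms4a1, which encodes CD20, went from 2.94, 4.91, 1.81, 5.03 and 3.78 to a range of 18.7 to 118 with a median of 77.7 (log2 fold change 3.70, SE 0.39, adjusted p = 2.66e-08), and Jchain, which joins antibody chains, from a range of 2.55 to 4.09 to one of 10.9 to 231 (log2 fold change 3.82). Lactate 5 and 6 were the lowest of their group in both genes, but above all D0 libraries. Pou2af1, Mzb1 and Gimap4 rose by 3.85, 3.56 and 3.58, and Rnase1, a secreted ribonuclease of acinar cells, by 3.82. In all, 19 of 19 T and NK cell markers rose, as did 13 of 15 B and plasma cell markers, 15 of 16 dendritic cell markers and 15 of 21 acinar markers, with 0 falls. Among the acinar markers was Cpa1, a digestive carboxypeptidase gene, which went from 29.8, 19.3, 21.2, 19.6 and 13.7 to a range of 63.0 to 245 (log2 fold change 2.34). Prss1 stayed low (0.281 to 2.18 with lactate, 0.85, adjusted p = 0.127). It passed the test with a pseudocount of 0.1 (2.48, adjusted p = 0.00274), with only the 2 groups in the model (adjusted p = 0.00381), with library weights and with the replicate block. The labels call these samples macrophages, and the sort that would hold other cells back is not described beyond its being by fluorescence.

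Antigen presentation through MHC class II rose with these markers. Of 16 genes 13 rose and 0 fell, with a median of 2.29, and 11 rose with the lymphocyte covariate (median 1.16). Cd74, the invariant chain that escorts class II molecules, had 739, 493.1, 530.0, 526.5 and 561 FPKM at D0 and 2161 to 3872 with a median of 2879.5 with lactate (log2 fold change 2.33, SE 0.17, adjusted p = 5.32e-11). H2-Aa, a class II chain, went from 402, 276, 237, 304 and 289 to a range of 1242 to 2273 with a median of 1707 (log2 fold change 2.46, SE 0.18, adjusted p = 1.08e-10), and Ciita, the master regulator of the class II genes, from 3.29, 3.58, 3.23, 3.28 and 3.58 to a range of 12.9 to 39.1 (log2 fold change 2.52). The 5 D0 libraries lay well under all lactate libraries in these genes. H2-Oa, a class II modulator best known from B cells, rose by 2.79. B cells and dendritic cells express class II genes too, their markers rose in the same libraries as given above, and their part in the result was not tested. The PBS step of Cd74 was 2.33, with a difference of -0.01 between lactate and PBS (adjusted p = 0.99).

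All 45 cell cycle genes tested rose, with a median of 2.44. Mki67, the proliferation marker Ki-67, had 2.28, 1.77, 1.78, 1.26 and 1.35 FPKM at D0 and 11.9 to 45.1 with a median of 20.1 with lactate (log2 fold change 3.09, SE 0.36, adjusted p = 1.06e-07). Stmn1, which encodes the microtubule regulator stathmin, went from 8.70, 5.78, 5.39, 5.04 and 4.67 to a range of 50.6 to 112 with a median of 76.3 (log2 fold change 3.53, SE 0.24, adjusted p = 3.33e-11), Ccna2, the cyclin A2 gene, from a range of 0.816 to 1.45 to one of 8.50 to 38.5 (log2 fold change 3.21), and Pclaf, which binds the replication clamp, from a range of 1.29 to 2.50 to one of 11.4 to 85.3 (log2 fold change 3.61). The kinetochore gene Ndc80 and the spindle gene Nusap1 rose by 2.45 and 2.95. No lactate library came down to the D0 range in these genes, and 1 of the 45 genes was higher than in NC (8.64% of all genes were), where Mki67 stood at 18.3, 13.4 and 17.8. With the lymphocyte covariate 5 rose and 1 fell (median 0.50), so dividing macrophages and dividing lymphocytes cannot be told apart here. Lactate 2 and 3, the libraries highest in Mki67 (38.4 and 45.1), were also the highest in Ms4a1 (97.9 and 118). Their T and NK cell marker means (4.89 and 4.92 on the log2 scale) were below those of lactate 1 and 4 (5.13 and 5.14). The summed FPKM of those markers was 815 in lactate 2 and, the highest of the group, 973 in lactate 3. None of these matches was tested.

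A pair of promoter elements is known from genes that peak in late cell cycle: the cell cycle homology region, TTTGAA, and CCAAT. Both occurred together, on either strand, in 17 of 37 cell cycle genes with a RefSeq window (45.9%), against 7.97% of 27025 genes (6.95% of all 32851 promoters). Members rose whether they held the pair (17 of 17, median 2.52) or not (20 of 20, median 2.12). The Mki67 window, with each match in capitals, is chr7:135716462-135716577 (GRCm38.p6, minus strand).
Mki67: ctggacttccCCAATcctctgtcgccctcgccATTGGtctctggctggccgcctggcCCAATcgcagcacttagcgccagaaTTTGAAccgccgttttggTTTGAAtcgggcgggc

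Most interferon-stimulated genes did not pass the test between D0 and lactate. Of 29 tested, 3 rose and 1 fell, with a median of 0.40 (0.10 without lactate 5 and 6). Isg15, a ubiquitin-like protein induced by interferon, had 341, 183, 647, 224 and 343 FPKM at D0 and 149 to 1099.8 with a median of 418 with lactate (log2 fold change 0.40, SE 0.66, adjusted p = 0.615), and the groups overlapped widely. Ifit2, an antiviral RNA-binding protein, rose by 1.78 and Ifi44 by 1.26 (adjusted p = 0.0373 and 0.0433), but both calls were lost without any 1 of D0 1, 2 or 4 or of lactate 1, 4, 5 or 6. Ifitm3 fell by 0.76 and turned to 1.09 with the lymphocyte covariate. With that covariate 9 genes of the list rose and 0 fell (median 2.00), and with an acinar covariate 22 and 0 (median 1.43). Some genes known as targets of interferon gamma also rose. Cxcl9, a chemokine for activated T cells, had 4.08, 1.89, 3.81, 3.68 and 9.06 at D0 and 58.3 to 125 with a median of 106 with lactate (log2 fold change 4.20, SE 0.68, adjusted p = 1.20e-05). Iigp1, an immunity-related GTPase, went from 2.97, 1.23, 3.89, 2.00 and 3.17 to a range of 26.7 to 83.1 with a median of 53.9 (log2 fold change 3.96, SE 0.60, adjusted p = 4.92e-06), and Tgtp1, a related GTPase, rose by 3.30. None of the 3 genes overlapped between the groups. Cxcl10 and Acod1 rose by 1.86 and 1.68 (adjusted p = 0.0366 and 0.0376), and both calls were lost without D0 1, 2 or 4 or lactate 1 or 5.

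The PBS step from the same D0 libraries went down: 0 of the 29 genes rose and 19 fell, with a median of -1.19, where 43.0% of all genes rose and 19.8% fell (62.9% in all). Over single omissions of D0 or PBS libraries 14 to 29 fell, with medians between -1.50 and -0.91. The 2 steps share the D0 libraries, so only the direct difference of lactate and PBS libraries is a test. In that comparison 1162 genes were called (9.72%), 617 higher (5.16%) and 545 lower (4.56%) with lactate. Of the 29 interferon-stimulated genes 28 were higher with lactate and 0 lower, with a median of 1.63 (28 and 0, median 2.02, without PBS 5). Isg15 ran from 20.9 to 656 with a median of 36.5 with PBS against 149 to 1099.8 with lactate (difference 2.60, SE 0.62, adjusted p = 0.0144). Cxcl10, a further chemokine for T cells, ran from 14.4 to 550.3 with a median of 25.7 and from 203 to 826 with a median of 284 (difference 2.79, adjusted p = 0.0187). In both genes PBS 5 lay within the lactate range, at 656 and 550.3 FPKM, and in Isg15 PBS 6 did as well (164), whereas PBS 1 to 4 lay below every lactate library. T and NK cell and dendritic cell markers were higher in the same comparison (7 of 19 and 9 of 16 called, 0 lower), macrophage markers lower (0 higher and 4 lower of 14). Without PBS 5 these were 8 and 0, 10 and 1, and 1 and 6, and their part in the result was not tested.

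These direct calls depended on the model and on single libraries. With the 2 day 1 groups alone in the model 0 genes were called by limma (2282 at an unadjusted p under 0.05), and with all groups the count ran from 191 without PBS 1 to 2380 without PBS 5. It was 210 without PBS 4, 643, 646 and 696 without lactate 1, 3 and 4, and 2217 without lactate 6. For the interferon-stimulated genes it ran from 2 to 28 over these single omissions, with medians between 1.42 and 2.02, and 17 were higher without lactate 5 and 6 together. Without lactate 3 and 4 it was 0, with a median of 1.75, and with the lymphocyte covariate 29. Other genes among the 8 highest were Slfn4 (2.66), Ifit2 (2.62), Cxcl9 (2.62), Tgtp1 (2.59), Iigp1 (2.48) and Acod1, the gene of the enzyme that makes itaconate (2.49). Slfn4 itself stood at 621, 508, 1320.0, 496 and 624 at D0 and 64.7 to 621 with a median of 215 with lactate (-1.62, adjusted p = 0.0508). That step passed the test with only D0 and lactate in the model (adjusted p = 0.00928), with the replicate number as a block (0.0139), with library weights (0.00131), with median-ratio scaling (0.0312) and without lactate 5 (0.0246).

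**Figure D4:**
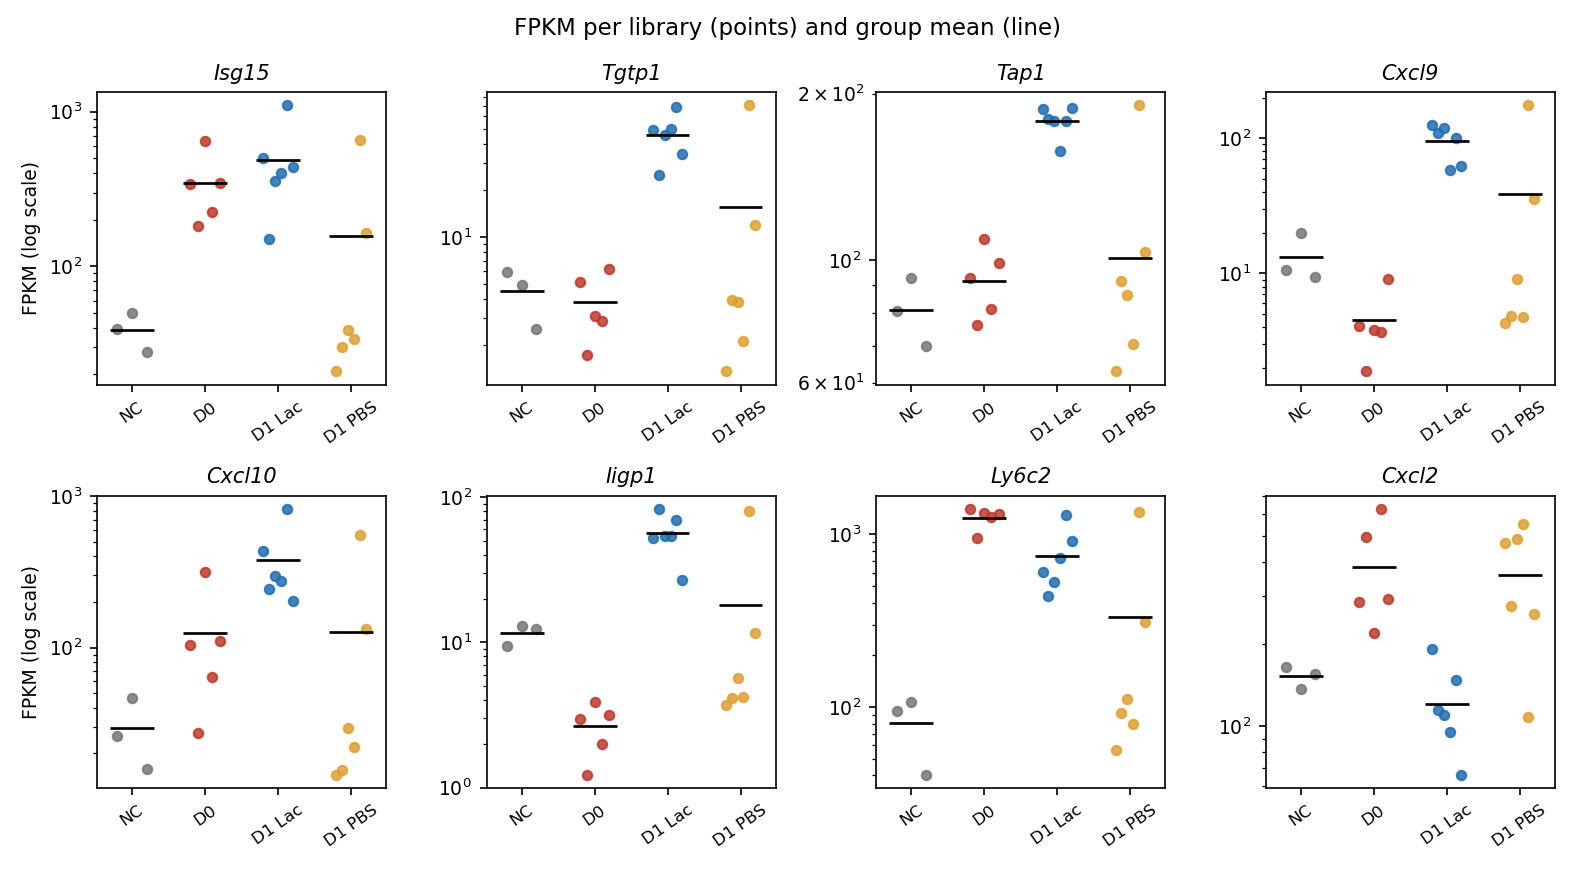
FPKM (log axis) of 8 genes in each library (points) of the groups NC, D0, D1 AP+Lac and D1 AP+PBS, with the group mean (line). For the interferon-induced genes PBS 1 to 4 lie low and PBS 5 reaches the lactate libraries; in Cxcl2 PBS 5 alone lies within the lactate range, below the other PBS libraries.

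MHC class I genes, which present peptides from inside the cell and are induced by interferons, rose with lactate. Of 18 tested, 15 rose and 0 fell from D0, with a median of 0.73, and 10 rose with median-ratio scaling and 5 with the lymphocyte covariate. Tap1, the peptide transporter gene, had 92.7, 76.2, 109, 81.7 and 98.7 FPKM at D0 and 158 to 189 with a median of 179 with lactate (log2 fold change 0.96, SE 0.19, adjusted p = 1.34e-04). Psmb9, a subunit of the immunoproteasome, went from 72.6, 61.3, 82.3, 64.8 and 90.4 to a range of 128 to 183 with a median of 171 (log2 fold change 1.11, SE 0.16, adjusted p = 2.23e-06), Tap2 rose by 0.87 and the class I gene H2-Q4 by 1.40. D0 and lactate libraries were separate in these genes. With the lymphocyte covariate Tap1, Tap2 and H2-Q4 lost their calls (adjusted p = 0.0825, 0.137 and 0.0544). The PBS step gave 3 higher and 1 lower of 18 (median -0.05), and the direct difference 14 higher and 0 lower (median 0.73), or 17 and 0 (median 0.90) without PBS 5. Tap1 with PBS ran from 62.9 to 190.5 with a median of 89.0, with PBS 5, at 190.5, as high as the highest lactate library (difference 0.92, SE 0.18, adjusted p = 0.00892). Over single omissions 8 to 17 class I genes were higher with lactate than with PBS, 0 with the 2 groups alone and 1 without lactate 3 and 4. Near-identical copies, such as H2-Q4 and its neighbours, Tgtp1 and Tgtp2, or Ifit3 and Ifit3b, may share fragments, so their single values are uncertain.

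**Figure D5:**
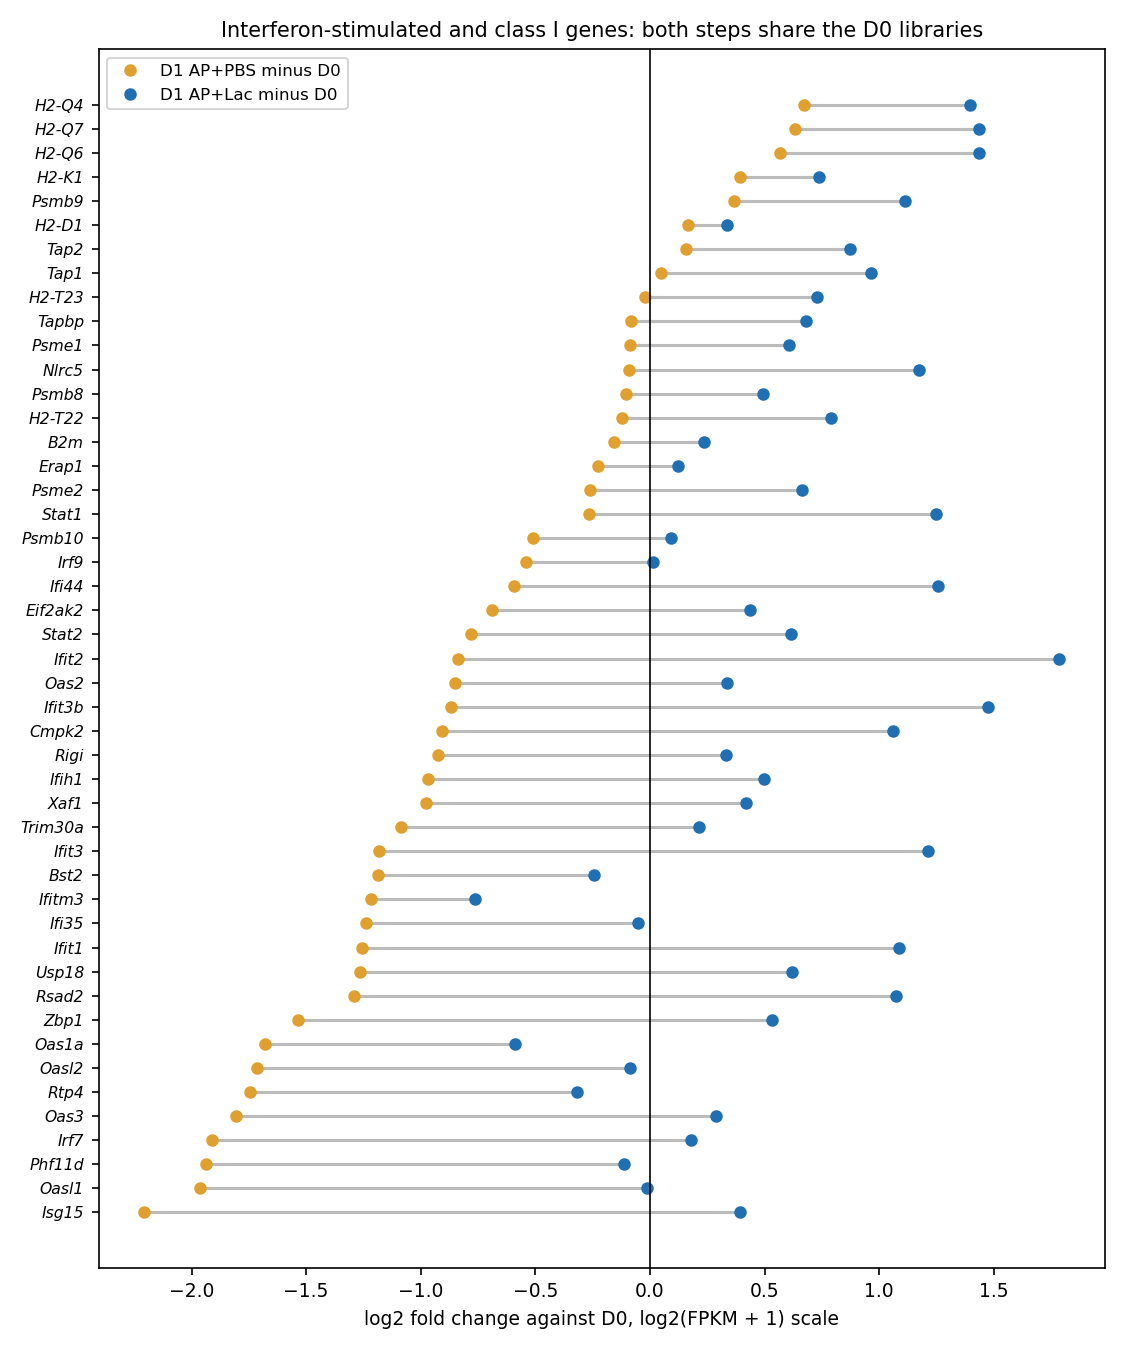
Log2 fold change from D0 to day 1 with lactate (blue) and with PBS (yellow) for 18 class I and 29 interferon-stimulated genes, joined by a line per gene and ordered by the PBS step. Each lactate value lies to the right of the PBS value; both steps use the same D0 libraries.

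The interferon-stimulated response element, taken as GAAA, 2 bases of any kind and GAAA, was searched on either strand. It was found in 14 of 24 list members with a RefSeq window (58.3%), against 3.99% of 27025 genes (3.44% of all 32851 promoters). Matches can overlap each other. Of the 14 members with the element 0 rose and 1 fell from D0 to lactate (median 0.42), and of the 10 without it 2 rose and 0 fell (median 0.10). Windows were looked for in more genes than are shown. Only matches lying wholly before the start could be printed, and promoters of 1 chromosome were left out. A gene without a printed window may therefore still hold the element. Ifit2, Ifi44 and Irf7 held no match, and Cxcl10 and Tgtp1 are not on the list counted above. The windows shown, each on the minus strand of GRCm38.p6, are those of Isg15 at chr4:156200865-156200906, Cxcl10 at chr5:92349083-92349112 and Tgtp1 at chr11:48992304-48992333, with the element's fixed letters in capitals.
Isg15: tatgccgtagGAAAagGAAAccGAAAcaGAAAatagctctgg
Cxcl10: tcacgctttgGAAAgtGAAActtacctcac
Tgtp1: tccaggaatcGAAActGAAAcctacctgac

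Some genes ended day 1 lower with lactate than with PBS. Cxcl2 did not pass the test under PBS (-0.17, adjusted p = 0.729), its FPKM running from 108 to 552 with a median of 374, and the direct difference was -1.45 (SE 0.39, adjusted p = 0.0223). Cxcl1, its close relative, had 7.93, 14.8, 3.75, 26.9 and 7.22 at D0, 1.53 to 9.76 with a median of 5.28 with lactate and 4.04 to 59.6 with a median of 29.1 with PBS. Its step with lactate did not pass the test (-0.88, adjusted p = 0.144), except with an acinar covariate (-1.56, adjusted p = 0.039). The direct difference of Cxcl1 was -2.02 (adjusted p = 0.0157). In both genes PBS 5 lay within the lactate range, and without it the differences were -1.76 and -2.47. Gdf15, a stress-induced cytokine gene, had 8.997, 4.93, 3.48, 4.21 and 4.46 at D0, 1.52 to 2.96 with a median of 2.14 with lactate and 2.97 to 23.4 with a median of 8.56 with PBS (step -0.93, difference -1.61), so that no PBS library came down to the lactate range. The lowest PBS value (2.97) was close to the highest lactate value (2.96). The Gdf15 step from D0 to lactate lost its call without D0 1 and without lactate 3 and 4 (adjusted p = 0.0507). It was also lost with the lymphocyte covariate (-0.42, adjusted p = 0.701). Stab1, a scavenger receptor gene, showed a step of -0.04 with lactate and 1.08 with PBS. The remaining genes of the 8 lowest differences were Tnfsf9 (-1.29), the metallothionein gene Mt1 (-1.15), Jdp2 (-1.12) and Gdpd1 (-1.11). Of 25 resident macrophage genes 0 were higher and 7 lower with lactate than with PBS (median -0.66), among them Mrc1 (difference -0.84, adjusted p = 0.0388), with 17 lower without PBS 5 and 16 without lactate 5 and 6. All of these calls, too, were lost with the 2 groups alone.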

How the data were processed

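RNA from sorted pancreatic macrophages (10 ng per library) was made into libraries with a VAHTS kit, per the labels' protocols. Per the submitters' processing notes, fastp and R 3.2.0 were used. For the aligner, the counter and the genome build, nothing is given in the sources used here. The deposited FPKM values, as the authors made them, are 1 column per library, matched to the samples by title. The FPKM steps gave back whole fragments for 99.97% of values (tolerance 0.0001). These fragments served for the depths, 33272778 to 41060349 over 28 libraries, and for an alternative test. Counting error covers only part of the spread: no pair of libraries from the same group agreed within counting noise (55 pairs over the 28 libraries). Chi-square divided by its degrees of freedom started at 26.41, for D0 2 with D0 4. Pairs across groups, such as D0 with lactate, were not compared.

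Differences were fitted on log2(FPKM + 1) with limma 3.58.1 in R 4.3.3, with 6 groups and 28 libraries in 1 model, a mean-variance trend, robust moderation and Benjamini-Hochberg adjustment over the 11960 genes that reached an FPKM of 1 in 3 or more libraries. Summaries used pandas 2.3.3 and numpy 2.4.6. Alternatives changed the pseudocount, the filter, the scaling, the groups in the model, marker covariates, moderation, library weights, the replicate block, limma voom on the fragments, and each library in turn.

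Genes named are the 12 highest and 12 lowest of the lactate step, the 8 highest and 8 lowest of lactate against PBS (called genes that averaged 5 FPKM or more in a group, leaving out gene models and antigen receptor segments), up to 4 members per list with the smallest p, and a set of genes named whatever their result. Members, lists and the comparison were chosen with earlier results of these data known. Promoter windows come from RefSeq on GRCm38.p6. No gene with a mitochondrial name prefix is in the table. Some genes that the rule names are not reported here.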

Additional observations from a re-analysis of the deposited data

Results flagged for a closer look

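Over the named genes, 318 sets of 5 or 6 libraries were checked for 1 library standing far from its group, and 43 had one, where chance gives about 1 in 20. PBS 5 was far above the next library of its group in 8 genes induced by interferons. With its FPKM and those of the next library in brackets, these were Cxcl9 (175, next 35.6), Iigp1 (80.0, next 11.6), Cxcl10 (550.3, next 133), Slfn4 (325, next 84.4), Ifit2 (230.1, next 51.1), Isg15 (656, next 164), Tgtp1 (70.8, next 11.9) and Acod1 (36.6, next 4.46). Lactate 5 was the highest of its group in Cxcl10 (826, next 434), Ifit2 (461, next 168), Isg15 (1099.8, next 502) and Fcna (28.6, next 17.8), and the lowest in Jdp2 (7.03, next 9.32). D0 3 was the highest D0 library in Cxcl10 (317, next 111), Slfn4 (1320.0, next 624), Ifit2 (136, next 42.1), Acod1 (10.8, next 7.07), Hspa5 (1716, next 1174) and Calr (1636, next 1305). It was the lowest in Gimap4 (2.29, next 10.0), Tgfb1 (99.1, next 119) and the ribosomal protein genes Rps4x (369, next 437), Rps24 (177, next 238) and Rpl10a (194, next 260.0).

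D0 1 stood highest in Gdf15 (8.997, next 4.93), Trem2 (239.7, next 148), Cd74 (739, next 561), Pltp (74.9, next 58.0), Cstb (597, next 447), Itgav (25.1, next 20.7), Stmn1 (8.70, next 5.78), Sdhc (85.1, next 79.6) and Nr4a3 (1.33, next 0.690), and lowest in Hp (218, next 347). D0 4 was highest in Osm (154, next 104) and D0 5 in Ifi44 (26.4, next 13.7). Lactate 4, the library with the most acinar RNA, was highest in the acinar genes Rnase1 (123, next 58.7) and Cpa1 (245, next 125) and lowest in Tap1 (158, next 178). Lactate 6 was highest in Csf1r (604, next 383), Lrp1 (107, next 52.3) and Itgb5 (125, next 61.0), and lactate 1 in Tnfsf9 (17.9, next 9.64).

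The step from D0 differed between lactate and PBS by a test of the difference itself in 1162 genes. The named ones were higher with lactate by 2.79 (Cxcl10), 2.66 (Slfn4), 2.62 (Cxcl9 and Ifit2), 2.60 (Isg15), 2.59 (Tgtp1), 2.49 (Acod1) and 2.48 (Iigp1) on the log2 scale. The differences of the others were -2.02 (Cxcl1), -1.61 (Gdf15), -1.45 (Cxcl2), -1.29 (Tnfsf9), -1.15 (Mt1), -1.13 (Stab1), -1.12 (Jdp2) and -1.11 (Gdpd1). None of these 16 differences kept its call with only the 2 day 1 groups in the model.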

How the results depend on the processing

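The count of genes called between lactate and D0 (7552) was 4207 with the lymphocyte marker covariate and 7047 to 7645 when single libraries were left out. The test on whole fragments (limma voom) called 5227 higher and 2300 lower. Quantile normalization gave 2852 higher and 3930 lower, and median-ratio scaling 3925 and 3808. The PBS step (7521) fell to 4921 with the acinar and 4809 with the lymphocyte covariate. Lactate against PBS (1162) gave 616 without a filter on low values, 0 with only the 2 groups (2282 at an unadjusted p under 0.05), 4591 with library weights and 191 to 2380 without single libraries. Among settings chosen after seeing the data, it gave 3195 without lactate 5 and 6, 3426 without libraries 5 and 6 of both day 1 groups and 8 without lactate 3 and 4. The cause was not tested.

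With the lymphocyte marker covariate 20 named genes that were called with or without it changed sign between lactate and D0: Pou2af1 -1.01, Jchain -1.67, Mzb1 -1.16, Adgre1 0.74, Ccr2 0.49, Trem2 1.16, Slc16a1 -1.47, Plin2 0.31, Tnfaip3 -0.21, Cd55 -0.56, Ifitm3 1.09, Cd68 0.17, Sdhc 0.03, Rpl10a -0.22, Lss -1.26, Acat2 -1.78, Scd1 -1.08, Smox 0.22, Sms -0.75 and Dusp2 -0.03. Another 48 lost their call and 3 gained one. The other 80 kept their side of the threshold, and those of them not called may have changed sign. Among those that lost their call were Arg1, at -2.96 (adjusted p = 0.1), and Spp1, at -0.23 (adjusted p = 0.794). No called difference of a named gene changed sign under any other setting run.

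D0 and day 1 libraries share replicate numbers, but the numbers were not shown to pair them: the correlations of same-numbered D0 and lactate deviations ran from -0.23 to 0.24. Those of lactate and PBS were -0.34, 0.49, 0.61, -0.21, 0.35 and 0.53 for numbers 1 to 6, so not every pair passed 0.1, although numbers 2, 3, 5 and 6 deviated together. With the number as a replicate block 7726 genes were called between lactate and D0 and 1300 between lactate and PBS. Marker levels that do not overlap between D0 and lactate, 5 and 6 libraries a group and the unknown origin of each limit the comparison; at 37518079 fragments or more per library, depth limits only genes near an FPKM of 0.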
